A study of Mus musculus with 6 samples.

Results

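The transcripts of the suppressors of cytokine signaling (Cish and Socs1 to Socs7) and of the kinases Pim1 and Pim2 were examined in hematopoietic stem and progenitor cells (HSPCs) that lack the Mirc11 microRNA cluster. These 10 genes were chosen by symbol as negative and positive arms of cytokine feedback, and all 10 were found among the 23997 symbols of the deposited table. All 10 also averaged at least 1 normalized count and so were among the 15662 genes tested. RNA was sequenced from Lin-Sca-1+c-Kit+ (LSK) cells sorted from the bone marrow of C57BL/6 mice aged 6 to 8 weeks in normal hematopoiesis. There were 3 wildtype libraries and 3 Mirc11-/- libraries, with 1 batch label for all of them. Each library came from an RNA preparation pooled over 3 to 4 mice, so the spread between libraries is that between pools. Mirc11-/- mice carry the deletion in every cell of the body, and the paralogous cluster Mirc22, which encodes miR-23b, miR-27b and miR-24-1, was not deleted in them.

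Cytokine receptors without kinase activity signal through Janus kinases (JAKs), which phosphorylate STAT transcription factors. Activated STATs induce Cish, Socs1, Socs2 and Socs3, whose proteins then bind receptors or JAKs and dampen the same signal. Each SOCS protein carries an SH2 domain and a SOCS box that recruits elongins and a cullin ubiquitin ligase. Pim1 and Pim2 are serine/threonine kinases that are active once made, so that their transcription, also driven by STATs, largely sets their activity, and they promote survival and translation in blood progenitors. Socs1 and Socs3 are best known for restraining interferon and IL-6 family signals, and Cish and Socs2 for restraining STAT5 signals of growth hormone, thrombopoietin and related cytokines.

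The deleted cluster encodes 3 microRNAs on chromosome 8, and their mature sequences are shown because their seeds are searched for in the SOCS and Pim transcripts further on. They were read from RefSeq on GRCm38.p6, 5′ to 3′ on the plus strand, with the seed (bases 2 to 8) in capitals. They lie at chr8:84208563-84208583, chr8:84208727-84208747 and chr8:84208875-84208896, in the order shown.
mmu-miR-23a-3p: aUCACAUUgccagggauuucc
mmu-miR-27a-3p: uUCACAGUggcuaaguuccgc
mmu-miR-24-3p: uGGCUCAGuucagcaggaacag
The 3 seeds differ from one another. In wildtype libraries 1, 2 and 3, the Mir23a precursor held 16, 16 and 19 reads, Mir27a held 10, 16 and 28, and Mir24-2 held 8, 21 and 44. All 3 precursors held 0 reads in each of the 3 Mirc11-/- libraries, as their labels say.

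Libraries held 15029379 to 17051541 reads in genes, and normalized counts are reads per gene after division by each library's size factor, close to 1. Of the defining surface markers of the gate, Ly6a (Sca-1) lay between 374 and 683 normalized counts and Kit between 6644 and 9950 over the 6 libraries. Of 12 LSK and stem cell markers, 8 had negative and 4 positive log2 differences, with a median of -0.086. Of the 12, 2 were lower (4.09% of all genes) and 0 higher (4.15%) at an unadjusted limma p under 0.05. Without Mirc11-/- library 3, limma called 2 of the 12 lower after adjustment, where 1.46% of all genes were called lower. Summed, the 12 stood at 40681 to 48417 normalized counts in wildtype and at 27283, 35590 and 48175 in Mirc11-/- libraries 1, 2 and 3. The lineage cocktail used to gate cells out held antibodies to B220, CD11b, CD3ε, Gr1 and Ter119, the last an erythroid antigen. Markers of other cell types varied among the Mirc11-/- libraries. All 22 measured erythroid markers had a positive log2 difference, with a median of 1.00. Of the 22, 10 were higher at an unadjusted limma p under 0.05 (4.15% of all genes). Their summed level was 26082 to 35837 normalized counts in wildtype libraries, against 63191, 58023 and 27758 in Mirc11-/- libraries 1, 2 and 3, so that Mirc11-/- library 3 lay inside the wildtype range. Among these 22 markers, 3 pairs of globin genes had identical values in each library, and no marker was at 0 in any library. Summed neutrophil and monocyte markers were 182567 to 221113 in wildtype and 156733 to 260371 in Mirc11-/- libraries, B cell markers 1100 to 1150 and 774 to 1479, T and NK cell markers 3210 to 3549 and 1735 to 3271, megakaryocyte markers 2753 to 4082 and 3148 to 4747, and mast cell and basophil markers 1815 to 1977 and 1647 to 3524. At an unadjusted limma p under 0.05, 6 of 19 neutrophil and monocyte markers were higher (4.15% of all genes) and 1 lower (4.09%). Higher by the same measure were 1 of 11 B cell, 1 of 9 megakaryocyte and 2 of 8 mast cell and basophil markers. Of 8 T and NK cell markers tested, 0 were higher, and in none of these other lists was a marker lower by it. The T cell marker Cd3e was at 0 in all 3 wildtype libraries and reached 2.01 in Mirc11-/- libraries. The mast cell markers Mcpt4 and Tpsb2 were at 0 in every library. In such bulk samples, fewer cells of a type and less RNA per cell cannot be told apart.

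None of the 10 transcripts passed the test between genotypes over all genes. Of the members described above as STAT-induced, Socs1, Socs3 and Pim1 had lower values in all 3 Mirc11-/- libraries than in any wildtype library. Their log2 differences between the group means were -0.73, -0.71 and -0.46. The other STAT-induced members, Cish, Socs2 and Pim2, overlapped between genotypes. Socs7 was the 1 member whose values were all higher in Mirc11-/- libraries. By limma with Benjamini-Hochberg adjustment, 0 of 10 members were lower and 0 were higher at an adjusted p under 0.05, where 0.0255% of all genes tested were lower and 0.00638% higher. The count tests called 0 of 10 members too, with edgeR calling 0.0255% and DESeq2 0.827% of all genes in either direction. At an unadjusted limma p under 0.05, 3 of 10 members were lower (4.09% of all genes) and 0 were higher (4.15% of all genes). Groups did not overlap for 3 members that were lower, against 6.53% of all genes, and for 1 that was higher, against 6.42%. The median log2 difference was -0.20 over the 10 members, 6 of them negative, and 0.0025 over all genes, of which 49.5% were negative.

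**Figure D1:**
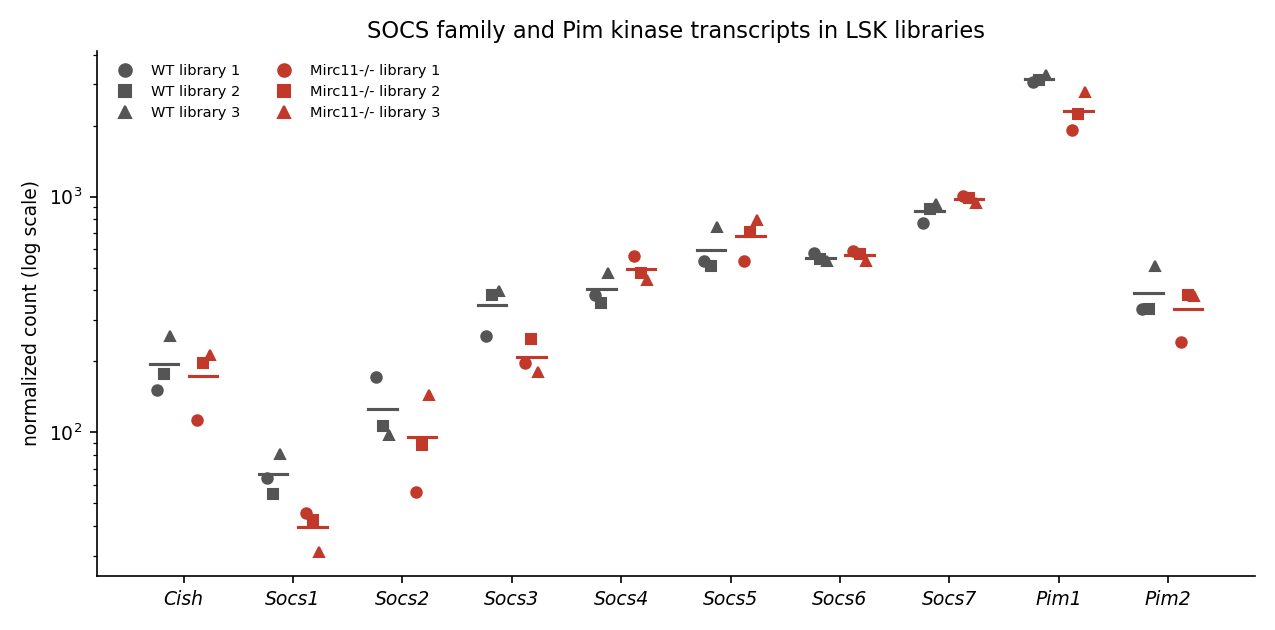
Normalized counts (log axis) of the 10 members in each of the 3 wildtype (grey) and 3 Mirc11-/- (red) libraries, with circles, squares and triangles for libraries 1, 2 and 3 and bars at the group means. The groups stand apart for Socs1, Socs3, Socs7 and Pim1, with Socs7 the only one of these that is higher in Mirc11-/- libraries.

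Socs1 encodes an inhibitor of JAK kinase activity that limits interferon signals. It had the fewest reads of the 10 genes, 31 to 80 per library, and the lowest of these carries an exact Poisson 95% interval of 21.1 to 44.0 reads, which covers counting error only. Normalized counts of Socs1 were 64.1, 54.6 and 81.1 in wildtype libraries 1, 2 and 3 and 45.4, 42.6 and 31.2 in Mirc11-/- libraries 1, 2 and 3. Every Mirc11-/- value lay below every wildtype value, and library 3 was the lowest of the mutants. The means were 66.6 ± 13.4 for wildtype and 39.7 ± 7.52 for Mirc11-/- (SD, n = 3 each). The log2 difference was -0.73 with an SE of 0.26 and a 95% interval of -1.32 to -0.14 (limma adjusted p = 0.524). The coefficient of variation between libraries was 20.1% in wildtype and 18.9% in Mirc11-/-, where counting error alone would give 13.7% at this level.

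Socs3 encodes the inhibitor that binds gp130 and the G-CSF receptor beside JAKs. It was measured at 255, 383 and 399 normalized counts in wildtype libraries 1, 2 and 3, and at 197, 248 and 181 in the corresponding Mirc11-/- libraries. The groups did not overlap, although wildtype library 1 and Mirc11-/- library 2 came close to each other. Means of 346 ± 78.8 and 209 ± 35.1 (SD, n = 3 each) gave a ratio of 0.603. The log2 difference was -0.71 (SE 0.20, 95% interval -1.17 to -0.26, limma adjusted p = 0.444). DESeq2 gave it an adjusted p of 0.078, the smallest of any member by that tool.

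Cish encodes the SOCS protein that is a classical STAT5 target. Its normalized counts were 151, 178 and 257 in wildtype libraries 1, 2 and 3 and 113, 196 and 213 in Mirc11-/- libraries. Only Mirc11-/- library 1 lay below the wildtype range, and the other two fell inside it. The log2 difference of -0.18 had a 95% interval of -0.81 to 0.45 (limma adjusted p = 0.878). It turned positive, to 0.10, without Mirc11-/- library 1 and to 0.038 without wildtype library 3. Socs2, which encodes a brake on growth hormone and cytokine receptors, was at 173, 106 and 97.3 in wildtype and at 55.8, 88.3 and 143.9 in Mirc11-/- libraries 1, 2 and 3. Its values spread 2.58-fold among the 3 mutants, the widest of any member within a genotype, and covered the wildtype range except its top. The log2 difference was -0.44 with a 95% interval of -1.24 to 0.36 (limma adjusted p = 0.745), and it ranged from -0.78 without Mirc11-/- library 3 to -0.10 without Mirc11-/- library 1.

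Socs4, Socs5, Socs6 and Socs7 encode the SOCS proteins with longer N-terminal regions, several of which act on receptor tyrosine kinases. Socs7 had 776, 886 and 932 normalized counts in wildtype libraries and 1003, 988 and 937 in Mirc11-/- libraries. The lowest mutant value narrowly exceeded the highest wildtype value, and the log2 difference was 0.18 (SE 0.096, 95% interval -0.040 to 0.40, limma adjusted p = 0.634). Socs4 was at 383, 354 and 476 in wildtype and at 559, 476 and 442 in Mirc11-/- libraries, with a log2 difference of 0.29 and a 95% interval of -0.041 to 0.62. Socs5 ran from 506 to 747 in wildtype and from 533 to 798 in Mirc11-/- libraries, with a log2 difference of 0.19 and a 95% interval of -0.23 to 0.61. The steadiest member was Socs6, at 534 to 576 and 534 to 589 normalized counts, with a log2 difference of 0.034 and a 95% interval of -0.18 to 0.25. All 4 of these genes had a positive difference. In the main fit of all 6 libraries, without weights or covariate, none of the 4 passed an unadjusted limma p of 0.05. Leaving out 1 library moved the difference between 0.063 (without Mirc11-/- library 3) and 0.36 for Socs5, between 0.10 and 0.23 for Socs7, between 0.0025 and 0.073 for Socs6, and between 0.19 and 0.41 for Socs4. Socs4 was under an unadjusted p of 0.05 without wildtype library 3 and without Mirc11-/- library 3.

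Pim1 was by far the most abundant member. Its normalized counts were 3058, 3127 and 3290 in wildtype libraries 1, 2 and 3 and 1925, 2249 and 2771 in Mirc11-/- libraries 1, 2 and 3. The wildtype libraries stood close together, with a coefficient of variation of 3.77%, while the mutants spread to 18.4% and all lay below them, library 1 the farthest. Means were 3158 ± 119 and 2315 ± 427 (SD, n = 3 each), a ratio of 0.733. The log2 difference was -0.46 (SE 0.12, 95% interval -0.75 to -0.18, limma adjusted p = 0.431). Without Mirc11-/- library 3, the mutant nearest to wildtype, the difference was -0.60 and passed the test (limma adjusted p = 0.0113). In that fit Pim1 was the only 1 of 10 members called lower, where 1.46% of all genes were called lower. The same fit called 20 of the 22 erythroid markers higher, the globin pairs with identical values among them. Over the whole table it called 303 of 15633 genes higher. With the erythroid level as a covariate and all 6 libraries, the difference of Pim1 was -0.22 (limma adjusted p = 0.4995). Erythroid level was itself above the wildtype range in Mirc11-/- libraries 1 and 2, so this fit cannot fully separate it from genotype.

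Pim2, the related kinase on the X chromosome, was at 332, 333 and 506 normalized counts in wildtype and at 241, 384 and 377 in Mirc11-/- libraries. Only Mirc11-/- library 1 lay below the wildtype values, and the log2 difference was -0.23 with a 95% interval of -0.74 to 0.28 (limma adjusted p = 0.796). Without that library the difference was -0.0072. The remaining family member Pim3, which was not among the 10 genes, was at 622, 883 and 997 in wildtype and at 527, 506 and 568 in Mirc11-/- libraries. Its groups did not overlap either, and its log2 difference of -0.62 (SE 0.16) had an adjusted p of 0.431 by limma and 0.0447 by DESeq2.

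**Figure D2:**
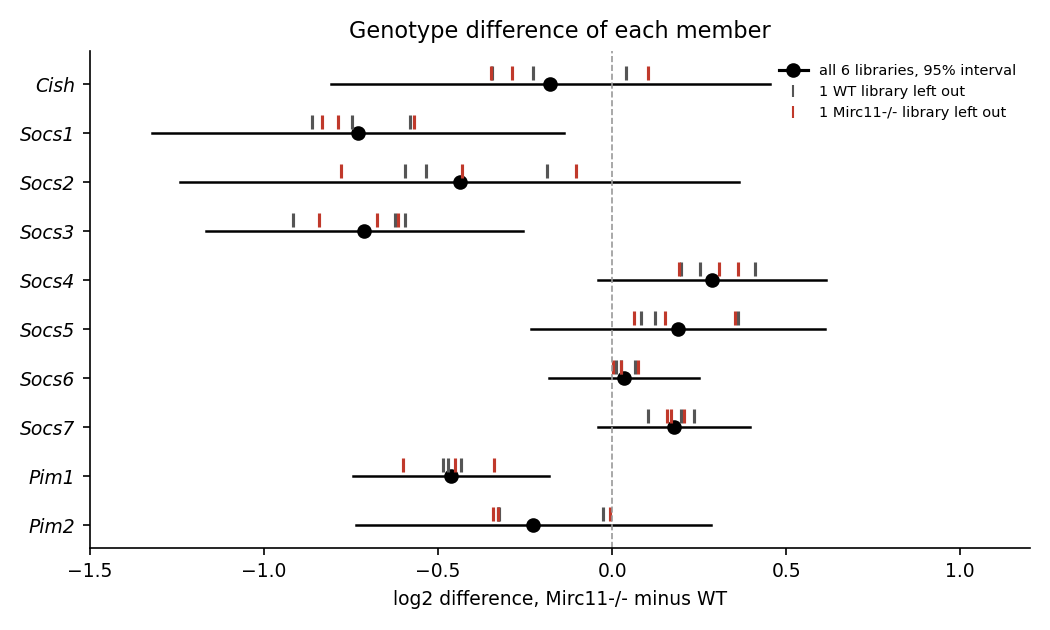
Log2 difference between Mirc11-/- and wildtype libraries for each member (circles) with its 95% interval from limma (lines), and the difference after leaving out each wildtype (grey ticks) or Mirc11-/- (red ticks) library. The intervals of Socs1, Socs3 and Pim1 lie below 0, and the ticks of Cish fall on both sides of it.

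For Socs1, Socs3, Pim1 and Socs7, an exact permutation test of the 6 libraries gave p = 0.1, the smallest value that 3 against 3 can give. Fits that weight libraries by their quality moved the calls. With limma array weights, 3 members were called lower (Socs1, Socs3 and Pim1) and 3 higher (Socs4, Socs5 and Socs7), where 17.9% of all genes were called lower and 18.3% higher. That fit gave Mirc11-/- library 2 a weight of 23.9, against 0.254 to 1.83 for the other 5 libraries, and its estimation stopped before reaching its tolerance.

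The members with negative differences did not follow a single order among the Mirc11-/- libraries. Relative to the wildtype mean of log2 values, Pim1 stood at -0.71, -0.49 and -0.19 in Mirc11-/- libraries 1, 2 and 3, while Socs1 stood at -0.52, -0.61 and -1.05 and Socs3 at -0.78, -0.45 and -0.90. Pim1, Pim2, Cish and Socs2 were thus lowest in library 1, whereas Socs1 and Socs3 were lowest in library 3. In the same libraries, the median erythroid marker stood at 1.67, 1.48 and -0.13, and the median of 18 immediate-early genes, which cells switch on within minutes of a stimulus or of handling, stood at -1.40, -0.64 and -0.82. With the erythroid level as a covariate, the log2 difference was -0.95 for Socs1 and -0.70 for Socs3, and it turned positive for Cish (0.26) and Pim2 (0.070) and negative for Socs6 (-0.047). The difference of Socs2 was then -0.023, against -0.44 without the covariate, and those of Socs5 and Socs4 were 0.47 and 0.19, against 0.19 and 0.29. Because the erythroid level itself differed between genotypes, this fit cannot fully separate it from genotype. The part of the immediate-early genes in these differences was not tested.

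**Figure D3:**
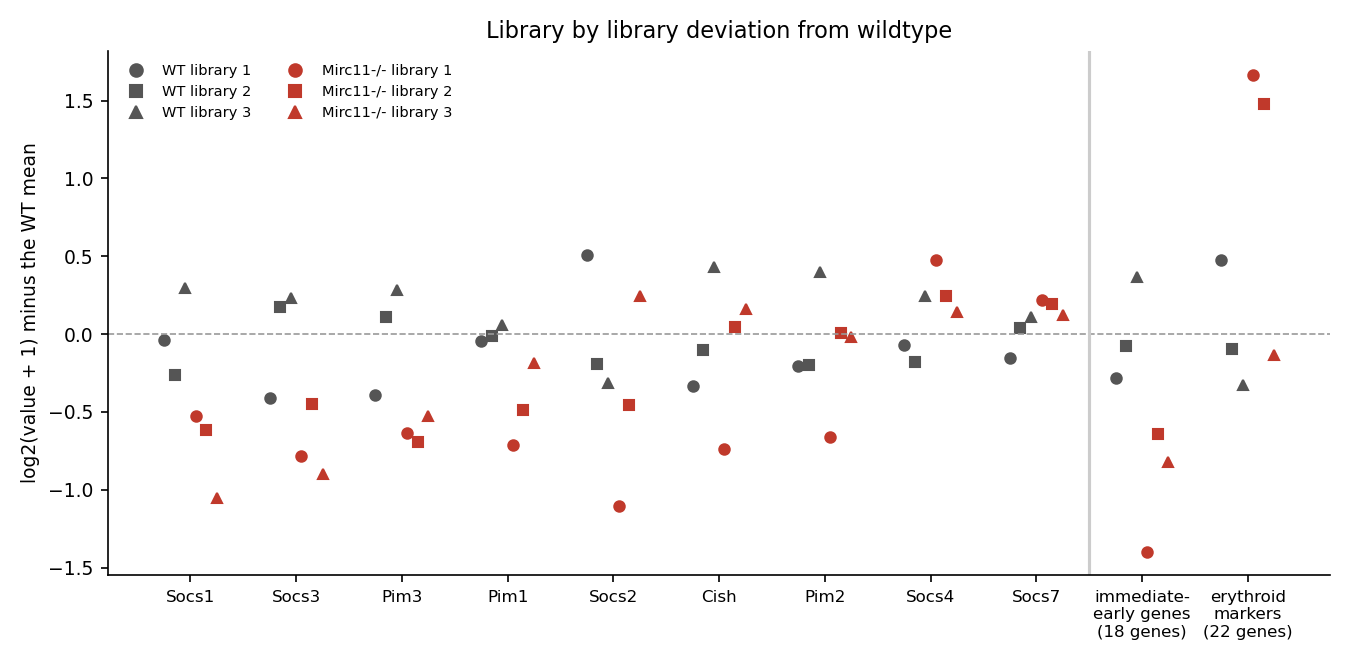
Deviation of each library from the wildtype mean on the log2(value + 1) scale for 8 members and Pim3, and at the right for the medians of 18 immediate-early genes and 22 erythroid markers (grey wildtype, red Mirc11-/-, with circles, squares and triangles for libraries 1, 2 and 3). Socs1 reaches -1.05 in Mirc11-/- library 3, where erythroid markers stand at -0.13, and Socs2 reaches -1.11 in library 1, where they stand at 1.67.

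Ratios of related members within a library do not depend on library scaling. The log2 ratio of Pim1 to Pim2 was 3.20, 3.23 and 2.70 in wildtype and 2.99, 2.55 and 2.87 in Mirc11-/- libraries, a difference of -0.24 (exact permutation p = 0.3) that ran from -0.41 without wildtype library 3 to -0.11 without Mirc11-/- library 2. For Socs3 to Socs2 the log2 ratio ran from 0.56 to 2.03 in wildtype and from 0.33 to 1.80 in Mirc11-/- libraries (difference -0.27, exact permutation p = 0.5), and for Cish to Socs2 from -0.19 to 1.39 and from 0.56 to 1.14 (difference 0.26, exact permutation p = 0.7). Adjusted over the 3 ratios, each p was 0.7, and the groups overlapped in every ratio.

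To compare genes with one another, normalized counts were divided by the length of the longest annotated transcript in kilobases (kb). In wildtype LSK cells, Pim1 stood at 1171 ± 44.2 per kb (SD, n = 3), above Pim2 at 191 ± 48.8. Socs3 (136 ± 30.9), Socs5 (128 ± 28.2) and Socs7 (123 ± 11.4) followed, and neighbours in this order overlapped between libraries. Socs6 at 91.3 ± 3.63 and Socs4 at 58.8 ± 9.28 were each clear of the member above. The lowest were Cish at 41.6 ± 11.8, Socs2 at 29.5 ± 9.70 and Socs1 at 22.9 ± 4.61, which overlapped in turn, Cish also with Socs4. With the union of all exons as the length, Socs7 passed Socs5, Socs4 passed Socs6 and Socs1 passed Socs2. Pim1 accounted for 68.9% of the 3 Pim kinase transcripts per kb in wildtype and 69.0% in Mirc11-/- libraries, Pim3 for 20.0% and 17.9%, and Pim2 for 11.1% and 13.1%. Over the 6 libraries the Pim1 share ran from 64.9% to 73.0%.

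**Figure D4:**
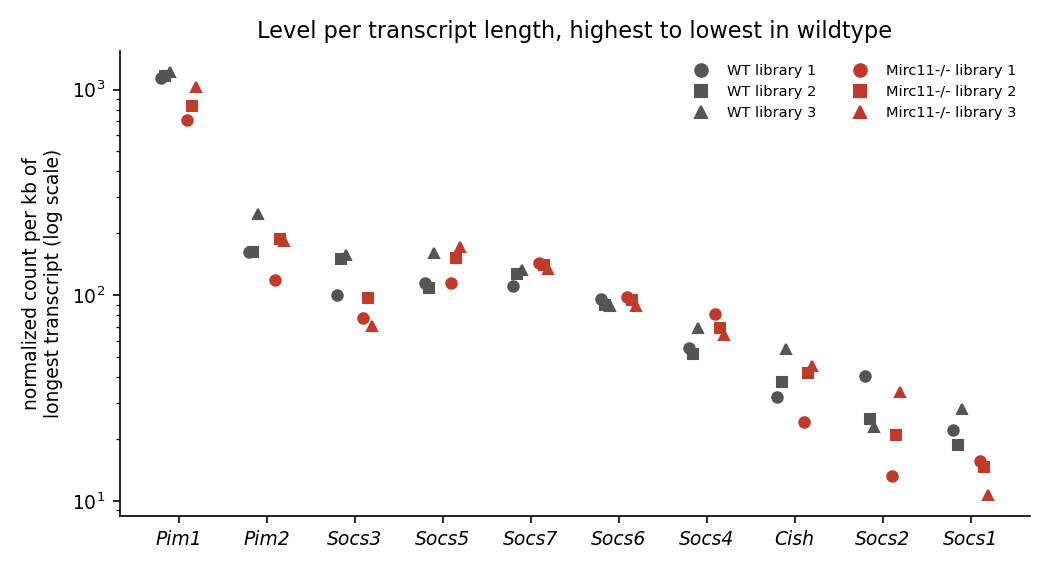
Normalized count per kb of the longest transcript (log axis) for each member in wildtype (grey) and Mirc11-/- (red) libraries, ordered by the wildtype mean, with circles, squares and triangles for libraries 1, 2 and 3. Pim1 averages 1171 per kb in wildtype and Socs1 22.9, with most neighbouring SOCS genes overlapping.

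The core of the pathway showed small differences. Of 11 JAK and STAT genes, 5 had negative and 6 positive differences, with a median of 0.0053. At an unadjusted limma p under 0.05, 0 of them passed, against 4.09% of all genes lower and 4.15% higher. The smallest p-values were those of Stat4 (log2 difference -0.34) and Jak2 (0.14), and without Mirc11-/- library 3 Stat4 was called lower (limma adjusted p = 0.0252). All 9 measured partners of the SOCS box had positive differences with a median of 0.078. Of these, 2 were higher at an unadjusted limma p under 0.05 (4.15% of all genes). They were the neddylation enzyme Ube2f (0.35) and the ubiquitin ligase Arih2 (0.19), and elongin C (Tceb1) followed at 0.10.

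Other brakes on JAK-STAT signals were split in direction. Of 13 such genes, among them phosphatases, PIAS proteins, adaptors, Cbl proteins and Usp18, 7 were negative and 6 positive with a median of -0.015. At an unadjusted limma p under 0.05, 1 was lower (4.09% of all genes). This was Usp18, the interferon-induced deISGylase that blocks the type I interferon receptor, at 216, 316 and 319 normalized counts in wildtype and 166, 181 and 179 in Mirc11-/- libraries. Its groups did not overlap, and its log2 difference was -0.67 (SE 0.18, limma adjusted p = 0.431). Ptpn11 (0.16) and Cblb (-0.20) came next by p.

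Among 30 tested cytokine receptors that use JAKs, 20 had negative and 10 positive differences with a median of -0.14. At an unadjusted limma p under 0.05, 3 of them were lower and 2 higher, against 4.09% and 4.15% of all genes. The growth hormone receptor Ghr was at 20.7, 14.9 and 17.2 normalized counts in wildtype and at 37.8, 38.4 and 43.3 in Mirc11-/- libraries, so that the groups stood apart on few reads. Its log2 difference was 1.14 (SE 0.28, limma adjusted p = 0.419). Il10ra, which encodes the IL-10 receptor, had a log2 difference of -0.47, with 577, 637 and 705 in wildtype and 462, 429 and 495 in Mirc11-/- libraries. The lymphoid receptor Il7r had a log2 difference of -0.62 with overlapping groups. Without Mirc11-/- library 3, 3 of the receptors were called lower by limma and 1 higher, where the whole table gave 228 and 303 of 15633 genes. The 1 called higher is also among the erythroid markers called higher in that fit, so it is not a separate result.

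Of 19 other STAT-induced genes tested, 12 had negative and 7 positive differences with a median of -0.15. At an unadjusted limma p under 0.05, 3 were lower (4.09% of all genes). DESeq2 also called 3 lower after adjustment, where it called 0.827% of all genes in either direction. The AP-1 gene Junb was at 6286, 6423 and 10151 normalized counts in wildtype and 3216, 5085 and 4553 in Mirc11-/- libraries (log2 difference -0.82, DESeq2 adjusted p = 0.0203). Mcl1, which encodes a survival factor of the BCL2 family, had a log2 difference of -0.62 (DESeq2 adjusted p = 0.0403), and the cell cycle inhibitor Cdkn1a had one of -0.76 (DESeq2 adjusted p = 0.0408). Their limma adjusted p-values were 0.431 to 0.444. Junb is also an immediate-early gene. All 18 immediate-early genes tested had negative differences, with a median of -0.83. Of these, 14 were lower at an unadjusted limma p under 0.05 (4.09% of all genes). After adjustment, DESeq2 called 10 of the 18 lower, against 85 of 14750 genes, and limma called 0, against 0.0255% of all genes. Fos (-1.13), Ier2 (-0.81) and Zfp36 (-1.03) had the smallest p.

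Pim kinase substrates were divided evenly. Of 12, 6 had negative and 6 positive differences with a median of 0.019. At an unadjusted limma p under 0.05, 2 were lower (4.09% of all genes). Cdkn1a, whose protein Pim kinases phosphorylate, stood at 326, 560 and 598 normalized counts in wildtype and at 299, 281 and 269 in Mirc11-/- libraries. Map3k5, which encodes the stress kinase ASK1, had a log2 difference of -0.20, and Akt1s1, which encodes the mTORC1 inhibitor PRAS40, had one of -0.21.

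The genes whose log2 values followed each member most closely were ranked over the 6 libraries among 11402 genes with a mean of at least 50, as a description in which all genes share the same libraries. Picking the top of 11402 genes over 6 libraries itself selects high r, and no r was tested. For Pim1 they were Cacna2d4 (Pearson r = 0.999), Map3k14 (0.995) and Toporsos (0.993). For Socs3 they were Cog1 (0.983), Plk3 (0.981) and Tbc1d19 (0.979), and for Socs1 Them4 (0.975), Sgk1 (0.969) and Itm2b (0.959). For Cish they were Chst15 (0.992), Rnf150 (0.986) and Pitpnc1 (0.986), for Socs2 Unk (0.989), Macrod1 (0.983) and Ccdc40 (0.982), and for Pim2 Cc2d2a (0.989), Ulk1 (0.985) and Cyp2j6 (0.980). Among the members themselves, Cish and Pim2 were the closest pair (r = 0.967), and Socs1 followed Socs3 at 0.798.

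The windows around transcription start sites were searched for the palindromic STAT motif TTCNNNGAA, read on both strands, because STATs induce several of these genes. RefSeq windows of 250 bases before to 50 after the start (GRCm38.p6) were matched for 6 of 10 members, namely Cish, Socs1, Socs3, Socs4, Pim1 (with 2 windows) and Pim2. The motif was present in Cish and in Socs3, and in 8.30% of 32851 windows of all genes, or 6.98% of the 14267 windows of genes tested. Cish held 2 matches within its first transcribed bases, starting at positions 1 and 12 from the start, and Socs3 held 1, starting at position -154. They are shown with the motif in capitals, 5′ to 3′ on the strand of the gene, and the 2 Cish stretches overlap.
Cish, chr9:107296649-107296677, plus strand: ccgcccagttTTCCTGGAAagttcttgga
Cish, chr9:107296660-107296688, plus strand: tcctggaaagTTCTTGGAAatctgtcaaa
Socs3, chr11:117969502-117969530, minus strand: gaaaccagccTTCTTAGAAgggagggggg
With 4 bases in place of 3 between TTC and GAA, 0 of the 6 members had a match, against 6.95% of all windows. Both Socs3, whose groups stood apart, and Cish, whose groups overlapped, held the motif, and Socs1 and Pim1 held none in these windows.

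Matches to the seeds of the deleted microRNAs were counted in a single 3′ UTR per member, the longest in the annotation (GENCODE M21, GRCm38), on the sense strand. The letters searched were AATGTGA or ATGTGAA for miR-23a, ACTGTGA or CTGTGAA for miR-27a, and CTGAGCC or TGAGCCA for miR-24, which overlap where a site holds both. At least 1 match was found in 9 of 10 members, and Socs1 had none. Over 13567 genes with a 3′ UTR the share was 55.4%, but member UTRs were longer, with a median of 2422 bases against 1286. Pim1 and Pim2 had 1 match to miR-24 each, Socs3 had 2 and Cish had 3, and none of these genes matched miR-23a or miR-27a. Socs4 had 4 matches to miR-27a, and Socs5 and Socs7 had 1 each. Socs2 and Socs6 matched all 3 microRNAs. Of all genes, 25.1% matched miR-23a, 30.4% miR-27a and 27.9% miR-24. The 4 sites of 8 letters found in Pim1, Pim2, Cish and Socs2, the site of Socs7 and the first of the 4 sites of Socs4 are shown as examples, with the match in capitals.
Pim1, miR-24: gggccaactgCTGAGCCAcctgcccctt
Pim2, miR-24: ctgcctcctcCTGAGCCAggattgtcca
Cish, miR-24: ccaactctgaCTGAGCCAggcaccctgc
Socs2, miR-23a: cctttgagccAATGTGAAggtgcgagtt
Socs7, miR-27a: tcgcagctggACTGTGAcggcagctgc
Socs4, miR-27a: gaggctcaggCTGTGAAcaccagtgtc
The Pim1 site starts at base 578 of a UTR of 1365 bases and the Pim2 site at base 768 of 915. A match is a description of these letters and not a measured site. The paralogous cluster Mirc22, with miR-23b, miR-27b and miR-24-1, was not deleted, and its mature sequences were not read here. A match therefore does not show that a transcript lost its microRNA in Mirc11-/- cells.

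In the annotation (GENCODE M21, GRCm38), all 10 members are protein-coding genes, and the counts cover their exons. Socs1 lies at chr16:10782240-10785536 and Socs3 at chr11:117966079-117970047, both on the minus strand. Pim1 lies at chr17:29490753-29496112, Pim2 at chrX:7878262-7883432 and Cish at chr9:107296026-107302784, all on the plus strand. Socs2 lies at chr10:95385362-95417180 on the minus strand, and Socs4 at chr14:47276931-47296102, Socs5 at chr17:87107679-87137839 and Socs7 at chr11:97362551-97398542 on the plus strand. Antisense genes overlap Pim1 (Gm26885) and Cish (Gm17041), and whether reads were counted by strand is not given in the sources used here, so that reads of these pairs cannot be told apart.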

How the data were processed

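RNA-seq of sorted LSK cells was taken from 1 table of all 6 libraries, with genotype and replicate from the sample titles. The libraries were made with NEBNext Ultra II kits. Reads were aligned with STAR and quantified with Cufflinks according to the submitters' processing notes, which name mm10, whereas the supplementary methods name a human build. Symbols are those of mouse genes, and no versions were given. The authors deposited the table as FPKM, yet they form a signal equal to the reads of a gene over a size factor, and 100% of values above 0 were whole multiples of the value of 1 read (tolerance 0.001). No value was divided by gene length.

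Of 23999 entries, 2 symbols that had been turned into dates stood on 2 lines each and were summed. Genes that averaged 1 or more were compared by limma 3.58.1 (R 4.3.3; trend, two-sided, log2(value + 1), which understates changes of low genes), with Benjamini-Hochberg adjustment over all genes and a threshold of 0.05. Counts recovered from the deposited values were tested with edgeR 4.0.16 and DESeq2 1.42.0. The scripts were tested on simulated data. P-values reflect the spread between pooled RNA preparations. The precision at 15029379 to 17051541 reads per library is given as 95% intervals.

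Alternatives changed pseudocount, filter, scaling, trend, weights, covariate, block, tool and left-out library. Named are all members, the 3 genes of each pathway list with the smallest limma p, the 3 genes most correlated with each of 6 members, and defining markers, except 1 gene that is not reported here. Gm26885 and Gm17041, as overlapping genes, and the markers at 0 were named after their values or positions were seen. The members and lists were chosen with earlier results of these data known.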

Additional observations from a re-analysis of the deposited data

How the results depend on the processing

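Of 180 recalculated log2 differences of the 10 members, 166 kept their sign and their side of the threshold, 7 turned sign and 7 came to pass the threshold. The signs turned for Cish (0.12 with array weights, 0.26 with the erythroid covariate), Pim2 (0.11 and 0.070) and Socs6 (-0.047 with the covariate). Array weights brought Socs1 (-0.49), Socs3 (-0.50), Pim1 (-0.48), Socs4 (0.34), Socs5 (0.38) and Socs7 (0.19) past the threshold, so 3 members were lower and 3 higher, and 3 were higher at an unadjusted p under 0.05. The erythroid covariate gave 1 higher, Socs5, at an unadjusted limma p under 0.05. Leaving out 1 library gave -0.35 to 0.10 for Cish and -0.60 to -0.34 for Pim1, with 0 to 1 members lower at an adjusted p and 0 to 1 higher at an unadjusted p. The log2 ratio difference then ran from -0.73 to 0.16 for Socs3 to Socs2 and from -0.16 to 0.63 for Cish to Socs2. In the whole table limma called 4 genes lower and 1 higher, 2 and 2 without the trend, 2809 and 2868 with array weights, 85 and 37 by DESeq2, and 0 to 228 lower and 1 to 303 higher without 1 library, the highest without Mirc11-/- library 3. Without Mirc11-/- library 1 they were 9 and 5, and without any 1 wildtype library 0 genes were lower. The cause of these shifts was not tested.

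Same-numbered libraries did not deviate together (correlations of 0.0664, -0.0632 and 0.0969 for numbers 1, 2 and 3), so the numbers were not taken as pairs. A fit with a replicate block called 27 genes lower and 3 higher and 0 members, with adjusted p = 0.105 for Pim1 and 0.151 for Socs3. Socs1 had the fewest reads of the members, 31 to 80 per library.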
